A study of Caenorhabditis elegans with 10 samples.

Results

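The genes described here are the 10 Caenorhabditis elegans genes of propionate breakdown, chosen by gene symbol as the 2 known routes of the pathway, 5 genes each. They were followed over 10 Affymetrix whole-genome arrays of young adult worms, and all 10 passed the filter on dim probe sets that left 12641 genes. Propionyl-CoA arises from the breakdown of branched-chain amino acids, methionine and odd-chain fatty acids. In the canonical route, which depends on vitamin B12, propionyl-CoA carboxylase (pcca-1 and pccb-1 encode its alpha and beta subunits), methylmalonyl-CoA epimerase (mce-1) and methylmalonyl-CoA mutase (mmcm-1, whose cofactor is adenosylcobalamin and whose helper protein is mmaa-1) lead to succinyl-CoA and the tricarboxylic acid cycle. In the B12-independent shunt, acdh-1 (an acyl-CoA dehydrogenase), ech-6 (an enoyl-CoA hydratase), hach-1 (a hydrolase that releases 3-hydroxypropionate), hphd-1 (a transhydrogenase that makes malonate semialdehyde) and alh-8 (a dehydrogenase that makes acetyl-CoA) act in sequence. The shunt is known to be switched on in worms on bacterial diets poor in vitamin B12, through the nuclear hormone receptors nhr-10 and nhr-68, and its first gene, acdh-1, is widely used as a sensor of dietary B12.

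The arrays covered 8 worm populations with a mutation in or RNAi aimed at the mitochondrial respiratory chain, called mutants here, and 2 wild types. Of the 3 missense mutants, gas-1(fc21) is labelled for complex I, mev-1(kn1) for complex II and isp-1(qm150) for complex III; all were grown on OP50 plates and then in K12 liquid culture. In the other 5, wild-type N2 larvae were fed RNAi bacteria against a complex I gene, which the labels give by its sequence name and which RefSeq calls ndub-7, nduf-6, nuo-5, ndab-1 or ndua-13, for 2 generations on plates and a further one in liquid, with 5 mM IPTG, which induces transcription of the RNAi insert. The references were 1 array of N2 grown like the missense mutants and 1 array of N2 grown on HT115 on plates and in liquid, which its title names as the control for RNAi. The RNAi labels do not name a bacterial strain and the HT115 label mentions no IPTG and no empty vector; the RNAi arrays are counted with the HT115 culture here on the strength of that title. Adults were enriched by sucrose centrifugation, RNA of 3 biological replicates was combined before each hybridisation, and no strain had a second array, so a value from 1 array has no replicate check.

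The label of the isp-1 array cites T07C4.7, which is the sequence name of mev-1, so the name isp-1 rests on the rest of that label. Among the RNAi targets, nuo-5 stood at 51.9% and ndua-13 at 70.5% of the HT115 wild type in their own arrays, and nduf-6 and ndub-7 at 83.9% and 88.8%. Over the 10 arrays nuo-5 and ndua-13 were each lowest in their own array, nduf-6 was 2nd lowest, and ndub-7 was 8th from the lowest, with less of its transcript in 7 arrays that do not target it. The target ndab-1 stood at 211% in the ndab-1-labelled RNAi array, against that label, so RNAi arrays are called by their labels. A missense allele need not change its transcript, so the missense arrays had no such check. The ndub-7-labelled RNAi array stood apart: 11.5% of all genes were at least 2-fold higher than in its wild type, against 2.4% to 5.7% in the other 7 mutant arrays. Markers of sperm and stage stood apart in it too: the median log2 difference was 2.14 for 6 sperm genes, 6 of 6 higher, 1.02 for 5 moulting genes, 5 of 5 higher, and -0.79 for 10 oocyte and germ line genes. The sperm genes also departed in other arrays, with -2.66 and 0 of 6 higher in the nduf-6-labelled RNAi array and 0.80 and 6 of 6 higher in mev-1.

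The first 4 shunt genes ranged over 1.34 to 5.05 log2 units across the arrays, the shunt gene alh-8 over 0.86, and the B12-route genes over 0.44 to 1.29. Transcripts of acdh-1, ech-6, hach-1 and hphd-1 each had their 3 highest levels in gas-1, isp-1 and the ndub-7-labelled RNAi array, intermediate ones in the RNAi arrays labelled nduf-6, nuo-5 and ndab-1, and their lowest among the mutants in mev-1 and the ndua-13-labelled RNAi array. The last gene of the shunt, alh-8, did not share this order. No member passed limma's test over all genes in any of 6 comparisons of groups, and mutants of the same group differed widely from each other. Values below are log2 levels after quantile normalisation, or differences of such levels, and levels of different genes cannot be set against each other on these arrays. In RNA of whole worms, fewer cells of a type and less RNA per cell cannot be told apart.

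**Figure D1:**
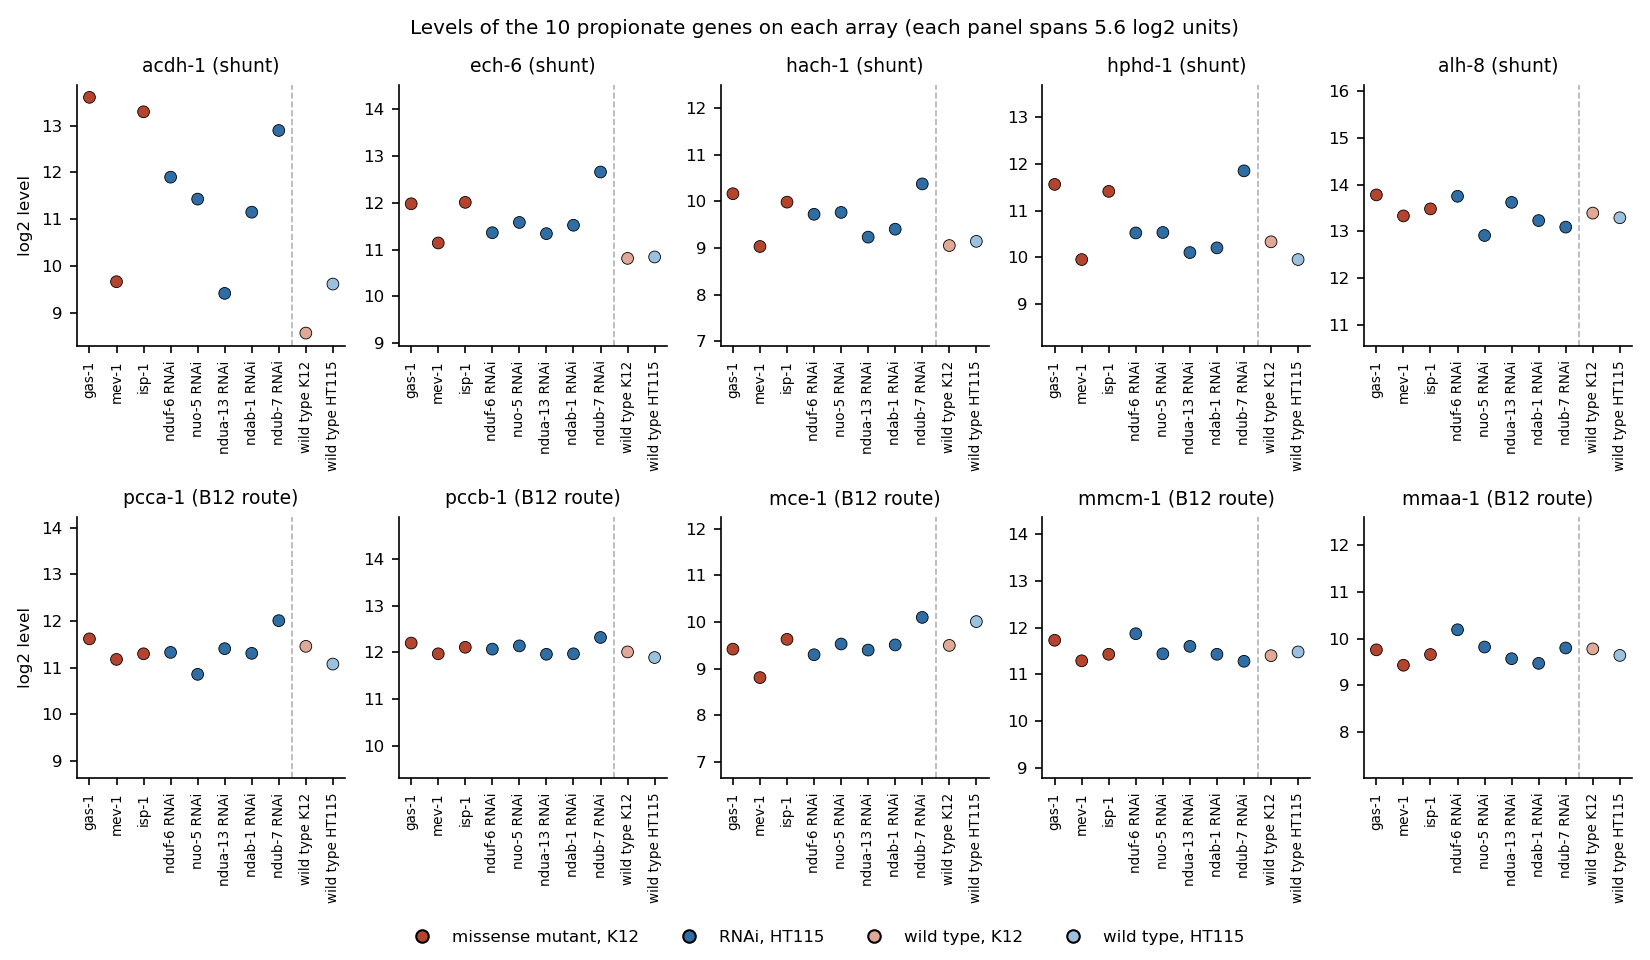
Log2 level of each of the 10 genes on each array, 1 point per array, with the mutants left of the dashed line and the wild types right of it; every panel has the same height in log2 units. acdh-1 runs between 8.56 in the K12 wild type and 13.61 in gas-1, while the 5 B12-route genes in the lower row span at most 1.29 log2 units.

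The first enzyme of the shunt, acdh-1, had the widest range of the 10 genes, 5.05 log2 units. Its log2 level was 13.61 in gas-1, 13.30 in isp-1 and 9.66 in mev-1, against 8.56 in the K12 wild type. It was 12.90, 11.90, 11.43, 11.15 and 9.41 in the RNAi arrays labelled ndub-7, nduf-6, nuo-5, ndab-1 and ndua-13, against 9.61 in the HT115 wild type. The gene was therefore highest in gas-1 and isp-1, next in the ndub-7-labelled RNAi array, and lowest in the K12 wild type. The mev-1 level lay beside that of the HT115 wild type, and the ndua-13-labelled RNAi array lay below it.

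In fold terms acdh-1 was 33.2-fold higher in gas-1 than in its wild type, the 9th largest ratio of 12641 genes there. It was 26.7-fold higher in isp-1, the 4th largest ratio of that array. In the ndub-7-labelled RNAi array it was 9.76-fold higher, at rank 97. The ratios were 4.87, 3.51 and 2.90 in the RNAi arrays labelled nduf-6, nuo-5 and ndab-1, 2.15 in mev-1 and 0.870 in the ndua-13-labelled RNAi array. So 7 of 8 mutant arrays were at least 2-fold higher, which 0.269% of all genes were in at least 7 arrays. Ratios of 1 culture share a single wild-type array, and their agreement is not replication. The K12 wild type was the lowest array for this gene, 1.06 log2 units below the HT115 wild type, so the missense ratios rest on a lower base: gas-1 and isp-1 also lay above every RNAi array in level.

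The enoyl-CoA hydratase ech-6 was above both wild types in 8 of 8 mutant arrays. Its log2 level was 11.98 in gas-1, 12.01 in isp-1 and 11.14 in mev-1, against 10.81 in the K12 wild type. It was 12.66, 11.36, 11.58, 11.52 and 11.34 in the RNAi arrays labelled ndub-7, nduf-6, nuo-5, ndab-1 and ndua-13, against 10.84 in the HT115 wild type. The groups of mutants and wild types did not overlap, with all 8 mutants above both wild types, as in 2.04% of all genes. Higher than the own wild type in 8 of 8 mutant arrays were 4.7% of all genes. The largest ratios were 3.52 in the ndub-7-labelled RNAi array, 2.30 in isp-1 and 2.24 in gas-1. The wild types themselves stood 0.03 apart.

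The hydrolase hach-1 had a similar pattern over a smaller range, 1.34 log2 units. Its log2 level was 10.16 in gas-1, 9.98 in isp-1 and 9.03 in mev-1, against 9.05 in the K12 wild type. It was 10.37, 9.72, 9.76, 9.40 and 9.23 in the RNAi arrays labelled ndub-7, nduf-6, nuo-5, ndab-1 and ndua-13, against 9.14 in the HT115 wild type. The mev-1 array was at the level of its wild type, with a ratio of 0.986, and the ndua-13-labelled RNAi array at a ratio of 1.06. The highest ratios were 2.35 in the ndub-7-labelled RNAi array, 2.17 in gas-1 and 1.92 in isp-1.

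The transhydrogenase hphd-1 was lower in mev-1 than in its wild type and high in the same 3 arrays as the genes before it. Its log2 level was 11.56 in gas-1, 11.41 in isp-1 and 9.95 in mev-1, against 10.33 in the K12 wild type. It was 11.85, 10.52, 10.53, 10.20 and 10.10 in the RNAi arrays labelled ndub-7, nduf-6, nuo-5, ndab-1 and ndua-13, against 9.95 in the HT115 wild type. The ratios were 3.74 in the ndub-7-labelled RNAi array, 2.34 in gas-1 and 2.12 in isp-1, but 0.768 in mev-1. A second, dimmer probe set of hphd-1 correlated with the one used at r = 0.97 over the 10 arrays and gave log2 differences of 2.05, 1.39, 1.31 and -0.38 in those arrays; the ndua-13-labelled RNAi array was 0.15 by the probe set used and -0.22 by the dimmer one. The genes acdh-1, ech-6, hach-1 and hphd-1 were each higher than their own wild type in at least 7 of 8 mutant arrays, as 13.5% of all genes were. The B12-route gene pccb-1 was also higher in 7 of 8.

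The dehydrogenase alh-8, which also acts in valine breakdown, had a range of 0.86 log2 units. Its log2 level was 13.78 in gas-1, 13.48 in isp-1 and 13.33 in mev-1, against 13.39 in the K12 wild type. It was 13.09, 13.75, 12.91, 13.23 and 13.62 in the RNAi arrays labelled ndub-7, nduf-6, nuo-5, ndab-1 and ndua-13, against 13.29 in the HT115 wild type. It was higher than its own wild type in 4 mutant arrays and lower in the other 4, and in the ndub-7-labelled RNAi array, where the 4 genes upstream of it in the shunt were at least 2-fold higher, its ratio was 0.869.

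**Figure D2:**
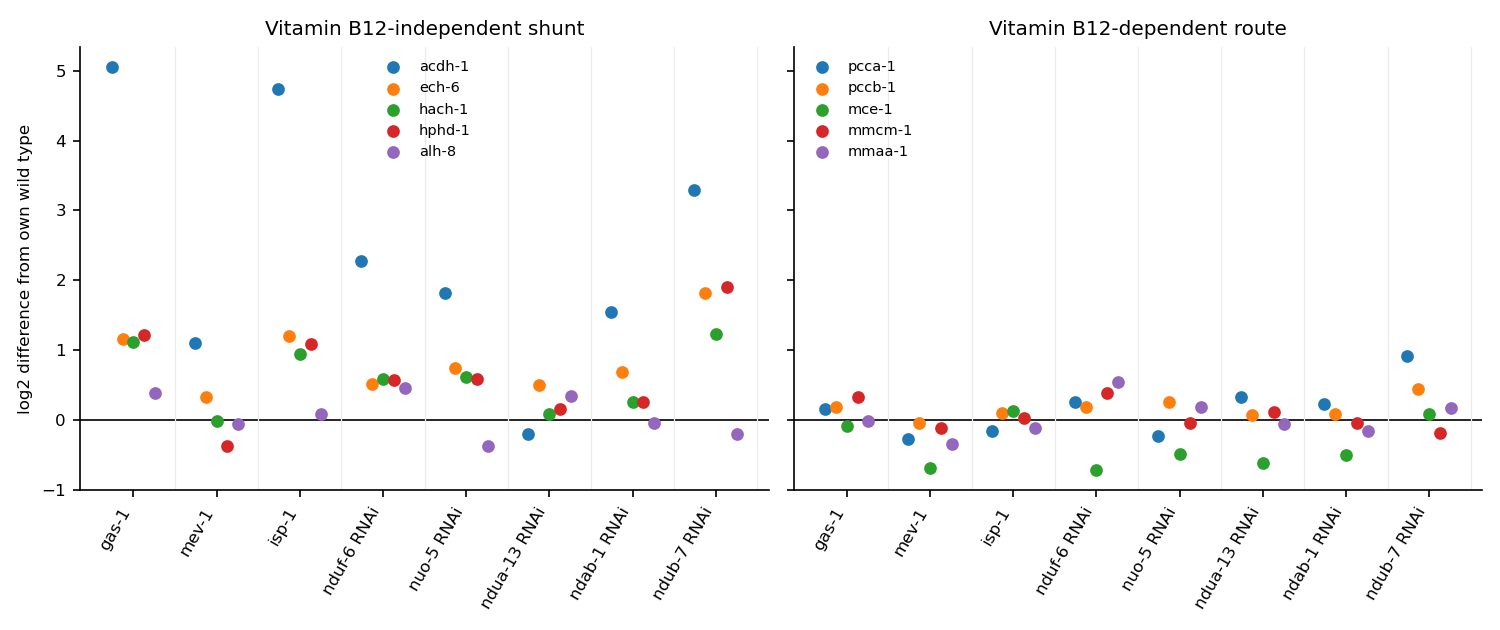
Log2 difference of each gene from the wild type of its own culture in the 8 mutant arrays, shunt genes left and B12-route genes right, 1 point per gene and array. In gas-1 and in the ndub-7-labelled RNAi array 4 of 5 shunt genes lie at or above 1 log2 unit, and no B12-route gene reaches 1 in any array by the probe set used.

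Counted per array, 4 of 5 shunt genes were at least 2-fold higher in gas-1, where 3.62% of all genes were, and 3 of 5 in isp-1, where 2.4% were. In the ndub-7-labelled RNAi array the count was 4 of 5, against 11.5% of all genes. It was 1 of 5 (acdh-1) in mev-1 and in the RNAi arrays labelled nduf-6, nuo-5 and ndab-1, where 4.26%, 2.89%, 4.05% and 5.7% of all genes were, and 0 of 5 in the ndua-13-labelled RNAi array, against 5.28%. The median of the 5 shunt genes was 1.16 for gas-1, -0.02 for mev-1 and 1.08 for isp-1, and it was 1.82, 0.57, 0.62, 0.26 and 0.15 in the RNAi arrays labelled ndub-7, nduf-6, nuo-5, ndab-1 and ndua-13. The median of all genes lay between -0.07 and 0.04 in these arrays. By the probe sets used, no B12-route gene was 2-fold higher in any mutant array; a dim second probe set of pccb-1 (mean level 4.21) stood 1.26 above its wild type in the ndub-7-labelled array. The median of that route lay between -0.28 in mev-1 and 0.25 in the nduf-6-labelled RNAi array.

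On the B12-dependent route, the biotin-dependent subunit pcca-1 had log2 levels of 11.62 in gas-1, 11.30 in isp-1 and 11.18 in mev-1, against 11.46 in the K12 wild type. It had 12.01, 11.33, 10.86, 11.31 and 11.41 in the RNAi arrays labelled ndub-7, nduf-6, nuo-5, ndab-1 and ndua-13, against 11.08 in the HT115 wild type. Its highest ratio, 1.90 in the ndub-7-labelled RNAi array, was the largest of this route. The second probe set of pcca-1 varied with the one used at r = 0.57 over the 10 arrays, with 0.74 against 0.92 log2 units in the ndub-7-labelled RNAi array and 0.78 against 0.23 in the ndab-1-labelled RNAi array. The partner subunit pccb-1 had a range of 0.44 log2 units over the 10 arrays. Its levels lay between 11.96 and 12.32 in the mutants, against 12.01 in the K12 and 11.89 in the HT115 wild type.

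The epimerase mce-1 was lower than its own wild type in 6 of 8 mutant arrays. Its log2 level was 9.42 in gas-1, 9.63 in isp-1 and 8.81 in mev-1, against 9.5 in the K12 wild type. It was 10.10, 9.30, 9.53, 9.51 and 9.40 in the RNAi arrays labelled ndub-7, nduf-6, nuo-5, ndab-1 and ndua-13, against 10.01 in the HT115 wild type. The lowest ratios were 0.608 in the nduf-6-labelled RNAi array and 0.621 in mev-1, and the highest level of all arrays was in the ndub-7-labelled RNAi array. In the RefSeq table of assembly WBcel235, mce-1 (D2030.5) and ndub-7 (D2030.4), the gene targeted in that array, are neighbouring coding genes.

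By the probe sets used, the mutase mmcm-1 and its helper mmaa-1 differed little. The log2 level of mmcm-1 lay between 11.28 and 11.87 in the mutants, against 11.40 in the K12 and 11.48 in the HT115 wild type, and its 2 probe sets did not vary together (r = 0.13 over the 10 arrays). The second probe set of mmcm-1 was highest in the K12 wild type, at 10.71, against 10.2 in the HT115 wild type. In mev-1 it stood at 9.94, a log2 difference of -0.76. For mmaa-1 the mutants lay between 9.43 and 10.19, against 9.78 and 9.64. By the probe sets used, both genes were highest in the nduf-6-labelled RNAi array.

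The 8 mutants were compared with both wild types in a limma fit with a term for culture, to ask what they shared in these genes. The log2 level of acdh-1 averaged 11.67 ± 1.58 (SD, n = 8) in the mutants, against 8.56 and 9.61 in the wild types, and its difference from the wild types was 2.64 (SE 1.1, 95% interval 0.16 to 5.12, adjusted p = 0.71 over all genes). For ech-6 the mean was 11.70 ± 0.49 in the mutants, against 10.81 and 10.84 in the wild types, and the difference 0.87 (SE 0.35, interval 0.09 to 1.66, adjusted p = 0.685). The differences were 0.61 (SE 0.33) for hach-1, 0.67 (SE 0.50) for hphd-1 and 0.08 (SE 0.22) for alh-8. On the B12 route they were 0.11 for pcca-1, 0.15 for pccb-1, -0.34 for mce-1, 0.06 for mmcm-1 and -0.01 for mmaa-1, with SEs between 0.11 and 0.25; that of mce-1 was -0.21 without the HT115 wild type. None of the 10 passed an adjusted p of 0.05 in limma, which 0.0158% of all genes did. At an unadjusted p under 0.05, 2 of 10 were higher (acdh-1 and ech-6), against 2.33% of all genes higher and 6.9% in either direction. Without the K12 wild type the acdh-1 difference was 1.74, more than 1.5 times smaller. Leaving out a wild type reduces this fit to the mutants and wild type of the other culture. Values obtained that way recur below, where each kind of mutant is set against its own wild type.

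**Figure D3:**
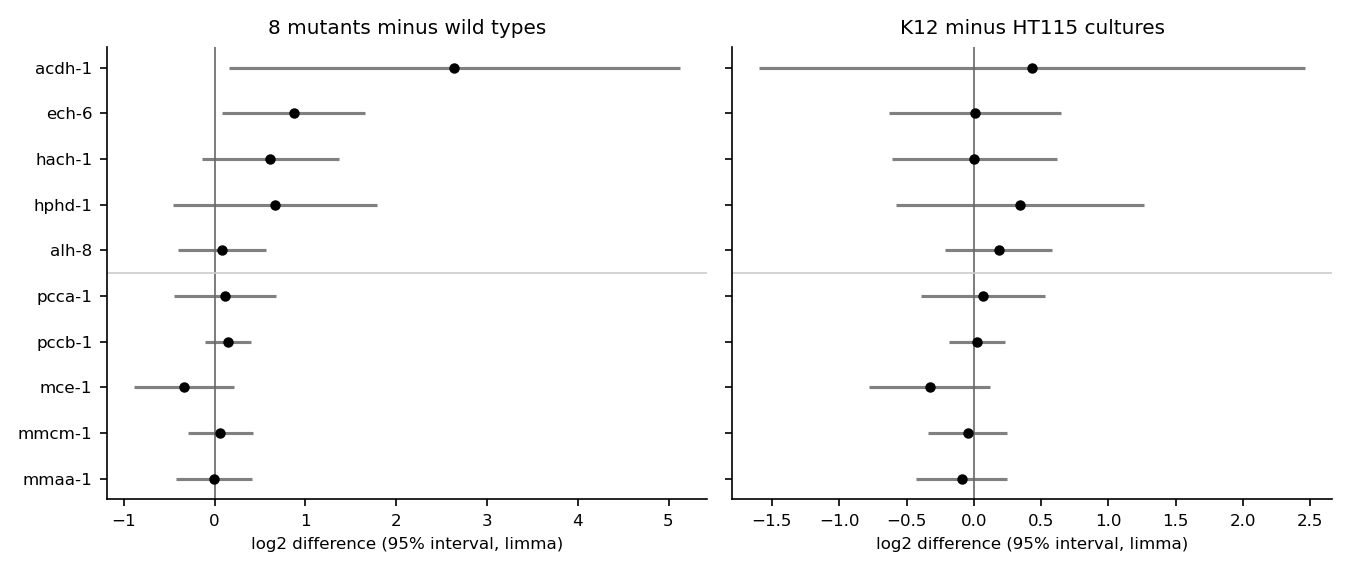
Log2 differences with 95% intervals from limma for the 10 genes, shunt genes above the grey line and B12-route genes below it; left, the 8 mutants minus the wild types with culture as a term, right, K12 minus HT115 cultures with mutant as a term. The intervals of acdh-1 and ech-6 on the left lie above 0 before adjustment for 12641 genes, and all intervals on the right include 0.

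Each kind of mutant was also set against its own wild type. In the missense mutants acdh-1 averaged 12.19 ± 2.20 (SD, n = 3), a difference of 3.63 (SE 1.63) from the K12 wild type. Among them mev-1 lay far below gas-1 and isp-1. In the RNAi arrays acdh-1 averaged 11.36 ± 1.28 (SD, n = 5), a difference of 1.74 (SE 1.55) from the HT115 wild type. For ech-6 the differences were 0.90 (SE 0.54) in the missense mutants and 0.85 (SE 0.51) in the RNAi arrays, for hach-1 0.68 (SE 0.51) and 0.56 (SE 0.49), and for hphd-1 0.64 (SE 0.77) and 0.69 (SE 0.73). The missense value of hphd-1 was 0.35 without gas-1, 0.42 without isp-1, 1.15 without mev-1 and 1.02 against the HT115 wild type, and that of hach-1 was 1.03 without mev-1. The RNAi value of hphd-1 was 0.39 without the ndub-7-labelled array and 0.31 against the K12 wild type. None of the 10 genes passed limma's adjusted p of 0.05 in either comparison, which 0.0316% of all genes did in the missense mutants and 0.396% in the RNAi arrays, and none was under an unadjusted p of 0.05, which 3.03% and 8.2% of all genes were. The missense response of acdh-1 minus its RNAi response was 1.89 (SE 2.25, interval -3.28 to 7.06, limma adjusted p = 1.00; 1.18 without gas-1 and 3.15 without mev-1), so the larger missense value is not a shown difference; none of the 10 passed there, against 0.0475% of all genes, or was under an unadjusted p of 0.05, against 4.21%. Each wild type is a single array, whose spread was taken to be that of the mutant groups. The missense difference of acdh-1 was 2.57 against the HT115 wild type, and the RNAi difference 2.8 against the K12 wild type, more than 1.5 times larger.

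The K12 and HT115 cultures were compared because bacterial diet is known to set the shunt in wild-type worms. In the wild types alone, without a test, acdh-1 was lower in K12 (8.56) than in HT115 (9.61), and 3.05% of all genes were at least 2-fold lower in K12. The other shunt genes of the wild types stood within 0.10 log2 units of each other except hphd-1, which was 0.38 higher in K12 by the probe set used. Its dimmer probe set stood at 6.76 in K12 and 6.81 in HT115. Of the B12 route, pcca-1 was 0.38 higher and mce-1 0.51 lower in K12. Over all arrays, with mutant as a term, the K12 minus HT115 difference of acdh-1 was 0.43 (SE 0.90, interval -1.59 to 2.46). It was 0.34 (SE 0.41) for hphd-1, 0.18 (SE 0.18) for alh-8 and -0.33 (SE 0.20) for mce-1, and the other 6 members lay between -0.09 and 0.07. These values rested on single arrays. That of acdh-1 was -0.19 without gas-1, -0.07 without isp-1, 1.28 without mev-1, 0.03 and 0.70 without the RNAi arrays labelled ndua-13 and ndub-7, and 0.83 without either wild type. With a wild type left out, this term equals the difference between the missense and the RNAi arrays given below. The K12 minus HT115 difference of hphd-1 was 0.13 without gas-1, 0.18 without isp-1, 0.72 without mev-1 and 0.58 without the ndub-7-labelled array. With the mean over its probe sets it was 0.20. That of alh-8 was 0.09 without gas-1 and 0.10 without the nuo-5-labelled array, and that of mce-1 was -0.16 without mev-1. None of the 10 passed limma's adjusted p of 0.05 (0.00791% of all genes did), and none was under an unadjusted p of 0.05 (6.58% were). Between the missense and the RNAi arrays acdh-1 differed by 0.83 (SE 1.03, interval -1.54 to 3.20) and hphd-1 by 0.33 (SE 0.49), at 0.12 and 0.04 without gas-1 and 2.09 and 0.84 without mev-1; none of the 10 passed in limma or was under an unadjusted p of 0.05, while 0.0712% of all genes passed and 5.35% were under that p. Culture bacteria, IPTG and kind of mutant go together in the 8 mutant arrays and cannot be told apart.

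Over the 10 arrays the level of acdh-1 was compared with that of each other member by Pearson's r and Spearman's rho, with two-sided permutation tests adjusted over these 9 genes. For hach-1 r was 0.94 (permutation p = 0.00016, adjusted 0.00144) and rho 0.87 (adjusted permutation p = 0.00995). For ech-6 r was 0.86 (permutation p = 0.00122, adjusted 0.00441) and rho 0.88 (adjusted permutation p = 0.00995). For hphd-1 r was 0.86 (permutation p = 0.00147, adjusted 0.00441) and rho 0.79 (adjusted permutation p = 0.0228). As a measure of the background, 0.15% of all other genes had an r with acdh-1 at least as high as ech-6 and 0.135% at least as high as hphd-1, and hach-1 had the highest of all 12640. Without the 2 arrays farthest from the median of acdh-1, gas-1 and the K12 wild type, r was 0.93 for hach-1, 0.82 for ech-6 and 0.90 for hphd-1. Within the 6 HT115 arrays r was 0.93, 0.80 and 0.85 for these genes, and the K12 culture holds 4 arrays, too few for a value of its own. The other shunt genes varied with each other too, without a test: r was 0.93 for ech-6 and hach-1, 0.90 for ech-6 and hphd-1, and 0.94 for hach-1 and hphd-1, while alh-8 had r between -0.11 and 0.07 with them. The B12-route gene pccb-1 was about as close to them, with r of 0.88 with ech-6, 0.92 with hach-1 and 0.91 with hphd-1. These arrays are different strains and feedings, so r describes how the genes vary across them.

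The carboxylase subunit pccb-1 also varied with acdh-1 (r = 0.78, permutation p = 0.00827, adjusted 0.0186; rho 0.78, adjusted permutation p = 0.0228), at 0.81 without the 2 farthest arrays and 0.88 within the HT115 arrays. The size differed: per log2 unit of acdh-1 the fitted slope was 0.06 for pccb-1, against 0.27 for ech-6, 0.26 for hach-1 and 0.34 for hphd-1. For alh-8 r was 0.13 (permutation p = 0.707) and rho 0.18, and r turned to -0.12 without the 2 farthest arrays and to -0.32 within the HT115 arrays. For pcca-1, mce-1, mmcm-1 and mmaa-1 r lay between 0.24 and 0.37, with adjusted permutation p-values between 0.545 and 0.573.

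**Figure D4:**
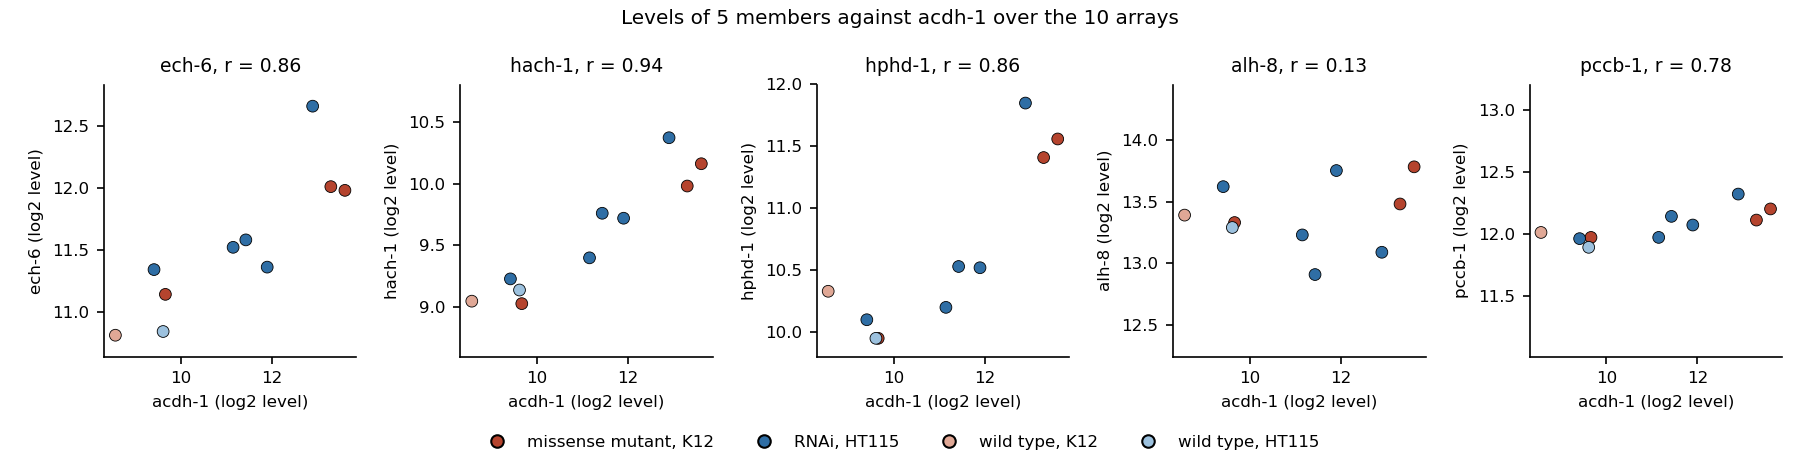
Log2 level of ech-6, hach-1, hphd-1, alh-8 and pccb-1 against the log2 level of acdh-1, 1 point per array, coloured by kind of array; the vertical axes all span the same number of log2 units. hach-1 (r = 0.94) rises along with acdh-1, pccb-1 (r = 0.78) does so over a range of 0.44 log2 units, and alh-8 (r = 0.13) shows no such order.

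Among the 6016 genes with a range of at least 1 log2 unit, the 5 with the highest r with acdh-1 were hach-1, mxl-3 (a bHLH transcription factor, r = 0.92), DC2.5 (0.91), the UDP-glucuronosyltransferase ugt-19 (0.89) and T07D3.9 (0.89); hphd-1 came 13th and ech-6 14th. The levels of mxl-3 were 9.47 in gas-1, 9.31 in isp-1 and 9.29 in the ndub-7-labelled RNAi array, against 8.60 in the K12 and 8.45 in the HT115 wild type. Those of ugt-19 were 7.55, 6.87 and 7.30 in the same mutants, against 4.28 and 4.52. The 5 with the lowest r were math-35 (-0.91), F49C12.7 (-0.89), cest-1.2 (-0.86), tsp-16 (-0.85) and F52E1.14 (-0.85). The level of F49C12.7 was 8.14 in gas-1, 8.56 in isp-1 and 8.37 in the ndub-7-labelled RNAi array, against 9.24 in the K12 and 8.95 in the HT115 wild type.

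The known regulators of the pathway varied less than acdh-1. The receptor nhr-10 had levels between 8.44 and 9.13 in the mutants, against 8.90 in the K12 and 8.62 in the HT115 wild type. The receptor nhr-68 was highest in the ndub-7-labelled RNAi array (8.99) and isp-1 (8.84), with 8.41 in gas-1, 8.29 in mev-1, and 8.35, 8.04, 8.09 and 7.84 in the RNAi arrays labelled nduf-6, nuo-5, ndab-1 and ndua-13, against 8.24 in the K12 and 8.22 in the HT115 wild type. It was lowest in the ndua-13-labelled RNAi array, the mutant array with the least acdh-1. The receptor nhr-114, known for its link to methionine metabolism, had a log2 difference from its own wild type of 2.17 in the ndub-7-labelled RNAi array and of -2.12 in mev-1. The mutants minus wild types differences were 0.35 for sbp-1, a regulator of lipid synthesis, 0.16 for nhr-10, 0.15 for nhr-68 and -0.00058 for nhr-114. None of the 5 regulators passed limma's adjusted test in any of the 6 comparisons, and 0.0158% of all genes did in the mutants minus wild types comparison.

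The other use of vitamin B12 in worms is methionine synthase, so genes of cobalamin handling and the methionine cycle were examined, of which 16 of 18 listed could be tested. Their median difference was -0.11, -0.13 and 0.03 in gas-1, mev-1 and isp-1, and 0.60, 0.47, 0.41, 0.36 and 0.28 in the RNAi arrays labelled ndub-7, nduf-6, nuo-5, ndab-1 and ndua-13. The K12 wild type stood 0.35 above the HT115 wild type in the same genes. Between 11 and 15 of the 16 were higher than their own wild type in the 5 RNAi arrays, where 42% to 54.9% of all genes were, and 5 to 9 in the 3 missense mutants, where 46.4% to 54.9% were. The mutants minus wild types difference was 0.39 (SE 0.13) for mel-32, a serine hydroxymethyltransferase, and 0.32 (SE 0.15) for ahcy-1, the S-adenosylhomocysteine hydrolase; it was 0.02 for cbs-1, a cystathionine beta-synthase, and -0.22 for cth-2, a cystathionine gamma-lyase. None of the 16 passed limma's adjusted test in any of the 6 comparisons; at an unadjusted p under 0.05, 5 were higher in the RNAi arrays than in the HT115 wild type, where 2.55% of all genes were. Looked up after their values were seen, sams-1 (S-adenosylmethionine synthetase) and pmp-5 (an ABC transporter) were highest in the ndub-7-labelled RNAi array, at 12.98 and 9.32, against 10.49 and 6.45 in the HT115 wild type. In gas-1, where acdh-1 was highest, sams-1 was at 11.29 and pmp-5 at 7.61, against 11.47 and 7.02 in the K12 wild type, and cth-1 of the same list, also looked up afterwards, was at 9.97, against 8.28.

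Branched-chain amino acid breakdown, a source of propionyl-CoA, was represented by 10 of 12 listed genes. Their median difference was 0.29, 0.12 and 0.19 in gas-1, mev-1 and isp-1, and 0.60, 0.08, 0.18, 0.26 and 0.27 in the RNAi arrays labelled ndub-7, nduf-6, nuo-5, ndab-1 and ndua-13, above 0 in each. Of the 10, 10, 6 and 6 were higher in gas-1, mev-1 and isp-1, and 9, 5, 6, 7 and 8 in the RNAi arrays in the same order, where between 42% and 54.9% of all genes were. The mutants minus wild types differences were 0.36 (SE 0.11) for ivd-1, an isovaleryl-CoA dehydrogenase, 0.41 (SE 0.18) for bckd-1B and 0.30 (SE 0.15) for dbt-1, both of the branched-chain ketoacid dehydrogenase, and 0.18 for ard-1. None of the 10 passed limma's adjusted test in any comparison, and 0.0158% of all genes did in the mutants minus wild types comparison. At an unadjusted limma p under 0.05 in that comparison, 1 of the 10 was higher (ivd-1, adjusted p = 0.581), against 2.33% of all genes.

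Of other acyl-CoA dehydrogenase genes, 9 of 11 listed could be tested, with medians between -0.21 in the nduf-6-labelled RNAi array and 0.21 in gas-1. The gene acdh-2 stood at 6.53 in gas-1, 4.64 in isp-1 and 3.05 in mev-1, against 3.62 in the K12 wild type, and at 3.16 to 3.66 in the RNAi arrays, against 3.78 in the HT115 wild type. In the ndub-7-labelled RNAi array, where acdh-1 was 9.76-fold higher, acdh-2 was 0.30 log2 units lower than in its wild type. Its level there, 3.48, was close to the filter on dim probe sets at 2.60, so that small difference gives no direction. The mutants minus wild types differences were 0.34 for acdh-11, 0.02 for acdh-7 and -0.26 for acdh-6. None of the 9 passed limma's adjusted test in any comparison, and 0.0158% of all genes did in the mutants minus wild types comparison.

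Because acdh-1 is known to be expressed in the intestine and epidermis, markers of these tissues and of stage were read beside the 3 arrays with the most shunt transcript. The median difference of 12 intestine markers was -0.12 in gas-1, 0.01 in isp-1 and 0.17 in the ndub-7-labelled RNAi array, and 5, 6 and 6 of the 12 were higher. In the ndub-7-labelled array 4 of the 12 were at least 2-fold higher, against 11.5% of all genes. The count was 1 in isp-1 and 0 in gas-1, against 2.4% and 3.62%. Looked up afterwards, pho-1 stood at 2.71 and vit-2 at -0.90 in the ndub-7-labelled array. For 8 epidermis markers the median difference was -0.25, -0.15 and 0.38, with 2, 3 and 5 higher. These medians hide large moves of single markers. At least 2-fold higher was 1 of the 8 in gas-1 and in isp-1 (bli-1), and 2 in the ndub-7-labelled array (bli-1 and rol-6). Looked up afterwards, bli-1 was at 10.64 and rol-6 at 12.06 in the ndub-7-labelled array, against 6.08 and 7.06 in the HT115 wild type. The marker col-19 was lower in all 3 arrays, at -0.69, -0.81 and -0.62. The summed intestine level lay between 16.82 and 17.18 in the mutants, against 17.13 in the K12 and 17.02 in the HT115 wild type. The summed epidermis level lay between 12.65 and 13.78, against 13.33 and 13.31. These sums weigh the brightest markers most, such as asp-1 of the intestine (15.16 in the K12 wild type), and dimmer markers count little in them. Moulting markers stood at -0.66, -0.43 and 1.02 in these 3 arrays and sperm markers at -0.05, -0.51 and 2.14, with summed levels of 11.35 to 12.81 for moulting and 10.32 to 14.71 for sperm in the mutants, against 11.97 and 13.61 in the K12 and 12.01 and 13.02 in the HT115 wild type. By the median, moulting markers were below the wild type in gas-1 and isp-1 and above it in the ndub-7-labelled RNAi array. The part of stage in the values of these 3 arrays was not tested.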

How the data were processed

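Per the labels' protocols, biotinylated cRNA of pooled total RNA was hybridised to Affymetrix C. elegans arrays. The authors deposited log2 values per probe set, whose scale was taken from their range, 1.43 to 16.01; their summarisation and normalisation are not given in the sources used here. Array medians differed by 0.13, so all 10 arrays were quantile normalised together. The table holds 22625 probe sets, of which 77 controls, 887 with several symbols and 895 with none were left out; 20701 of the remaining 20766 were named through the RefSeq gene table (assembly WBcel235). Probe sets with a mean level under the 25th percentile, 2.60, were dropped, and a gene took its probe set with the highest mean, which left 12641 genes.

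Tests used limma 3.58.1 in R 4.3.3 (empirical Bayes with a trend, Benjamini-Hochberg over all genes, adjusted p of 0.05, two-sided), checked on simulated data. The fit with culture and mutant terms had 7 residual degrees of freedom and the fit with 4 groups 6. Correlations used 100000 permutations. The number of arrays limits the precision, and p-values measure the spread between different mutants. The members and lists were chosen with earlier results of these data known. The genes named are the members, those mutated or targeted, up to 4 of each list with the smallest p, and the 5 highest and lowest r with acdh-1; others are named as looked up later. Marker lists of intestine, epidermis, oocyte and germ line, sperm and moulting stand in the results, and those of neurons, body wall muscle and pharynx muscle among the other observations. Of the listed genes, sams-3, mccc-2, hmgl-1 and acdh-10 were not matched, and cbs-2 and acdh-5 were under the filter.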

Additional observations from a re-analysis of the deposited data

Results flagged for a closer look

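Among the 5 RNAi arrays, the ndub-7-labelled RNAi array lay far above the other 4 in 3 of the 10 genes, by the gap to the next array as a share of the whole range. The share was 0.821 for ech-6 (12.66, against 11.34 to 11.58 in the other 4), 0.752 for hphd-1 (11.85, against 10.10 to 10.53) and 0.716 for mce-1 (10.10, against 9.30 to 9.53). The HT115 wild type stood at 10.84 for ech-6 and 9.95 for hphd-1. For mce-1 it stood at 10.01, close to the ndub-7-labelled RNAi array, and the other 4 lay below it. Of all 12641 genes, 4.04% lay as far above the other 4 in this array, more than the 0.388% to 1.6% in each of the other RNAi arrays. Chance alone puts about 5% of such groups past the limit used, counting any of the 5 arrays and both directions. The 4.04% counts 1 array in the upward direction only, so these 2 shares cannot be set against each other. The 3 values come from 1 array.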

How the results depend on the processing

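None of the 10 genes passed in any of the 6 comparisons under any setting that was run: deposited or median-centred values, no filter or a filter at the 40th percentile, the mean over probe sets, no trend, each array left out, and the other wild type as reference; the lowest adjusted p was 0.424. Without gas-1 (-0.19) or isp-1 (-0.07) the K12 minus HT115 difference of acdh-1 reversed, over a range of -0.19 to 1.28 with each array left out. The mutants minus wild types difference of mmaa-1, near 0, was -0.064 to 0.043 with each mutant left out and 0.13 without the K12 wild type, and that of pcca-1 was -0.094 without the HT115 wild type. That of acdh-1 ranged from 1.74 without the K12 wild type to 3.63 without the HT115 wild type, and that of ech-6 from 0.75 to 1.00. The correlation with acdh-1 reversed for alh-8 (-0.12 and -0.32) and for mmcm-1 (-0.037 and -0.19) without the 2 farthest arrays and within the HT115 arrays; the cause was not tested. Leaving out each array, chosen after seeing the data, r with acdh-1 lay between 0.93 and 0.96 for hach-1, 0.82 and 0.92 for ech-6, 0.82 and 0.92 for hphd-1, and 0.74 and 0.83 for pccb-1. No paired analysis was possible because the numbers in the RNAi titles mark different target genes, not replicates, and each wild type is 1 array. Response differences could not be fitted without either wild type.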

Other observations

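The remaining marker lists, read beside the 3 arrays with the most acdh-1, gave medians of -0.01 in gas-1, -0.09 in isp-1 and 0.43 in the ndub-7-labelled RNAi array for 8 neuron markers, -0.26, -0.22 and 0.48 for 7 body wall muscle markers, and -0.82, -0.64 and 1.23 for 5 pharynx muscle markers. The higher members were 4, 2 and 6 of the 8 neuron markers in these arrays, 0, 1 and 6 of the 7 body wall muscle markers, and 0, 0 and 4 of the 5 pharynx muscle markers. Both muscle lists were thus mostly below the wild type in gas-1 and isp-1 and mostly above it in the ndub-7-labelled RNAi array, while the neuron median in gas-1 was close to 0.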
